A study of Arabidopsis thaliana with 9 samples.

Results

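The genes described here are the canonical Aux/IAA repressors and the auxin response factors (ARFs) of Arabidopsis thaliana, measured as transcripts in the apical hook of dark-grown seedlings. Members were taken by gene identifier: IAA1 to IAA14, IAA16 to IAA19 and IAA26 to IAA29 in the first family, ARF1 to ARF11 and ARF16 to ARF19 in the second. Of the 37 genes, 35 were among the 16383 genes of the deposited table, 21 of them Aux/IAA and 14 ARF. IAA28 and ARF18 were not analysed here.

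The libraries came from 3 genotypes with 3 libraries each. WT was the Col-0 accession with no mutation named in its label, tmk1 carried the allele tmk1-1, which affects the plasma-membrane receptor-like kinase TMK1, and iaa32iaa34 was a double mutant of IAA32 and IAA34. Its alleles have no name in the sources used here. All seedlings were 45 h old and had grown in darkness at 22 °C. A sample was a pool of roughly 50 hook pieces, some 2 mm long and dissected free of cotyledons, so every value is a mean over many plants and over all cell types of the piece.

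Aux/IAA proteins are short-lived nuclear repressors. They bind ARFs, which are DNA-binding proteins that sit on auxin-response elements of target genes, and they recruit the co-repressor TOPLESS. Auxin joins TIR1/AFB F-box receptors to the degron of a canonical Aux/IAA, the repressor is ubiquitinated and degraded, and the ARF is released. Many Aux/IAA genes are themselves auxin-induced targets of ARFs, which closes a feedback loop. IAA32 and IAA34 lack the degron and so belong to the non-canonical Aux/IAAs. In the apical hook, auxin accumulates on the inner, concave side and slows growth there, and dominant mutations of several Aux/IAA genes and loss of ARF7 with ARF19 are known to disturb hook formation.

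The codons of the degron core define the canonical family, and they are shown for 5 members and set out 5′ to 3′, with the core in capitals, as read from the RefSeq TAIR10.1 coding sequences. IAA3 and IAA4 had the same letters throughout this window.
IAA1: caaatcgttGGATGGCCTCCAgtgagatct
IAA3: cagattgttGGATGGCCACCAgttagatct
IAA4: cagattgttGGATGGCCACCAgttagatct
IAA6: caagcggtgGGATGGCCACCTgtgtgttct
IAA19: caggtggtgGGGTGGCCACCGgtttgttct
The core was found in all 22 Aux/IAA coding sequences and in 0 of the 15 ARF sequences, and it was not found in IAA32. The families also differed in size. The longest annotated transcript had a median of 1358 bases among the 21 measured Aux/IAA genes (781 to 2025) and of 3132.5 bases among the 14 measured ARFs (2430 to 4429), which matters below because libraries differed in their share of short transcripts.

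Some ARF transcripts are cut by microRNAs, and the matching stretches are shown because they divide the family into groups with a shared regulator. The 2 mature microRNAs are written in the DNA letters of TAIR10.1 with the seed, bases 2 to 8, in capitals. In the 5 sites, all in coding sequence, capitals mark bases identical to the exact complement of the microRNA. Up to 4 mismatches were accepted, and a G facing a U was counted as a mismatch.
ath-miR167a-5p: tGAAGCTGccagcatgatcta
ARF6: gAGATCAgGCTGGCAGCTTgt
ARF8: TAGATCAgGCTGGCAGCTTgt
ath-miR160a-5p: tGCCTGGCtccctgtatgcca
ARF10: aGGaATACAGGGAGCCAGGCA
ARF16: gGGttTACAGGGAGCCAGGCA
ARF17: TGGCATgCAGGGAGCCAGGCA
ARF6 and ARF8 are activating ARFs, whereas ARF10, ARF16 and ARF17 form class C. A match is a description of the letters, and cleavage was not measured.

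Promoter sequences are shown for IAA6 and IAA19, which shared the longest stretch of any pair of Aux/IAA genes, and for IAA1, whose values recur below. IAA6 and IAA19 were picked for their promoters after all pairs had been compared. Each sequence is the 250 bases before the annotated start in TAIR10.1, on the gene's strand, with capitals for the auxin-response element TGTCTC, for its variant form TGTCGG, and for the G-box CACGTG, each on either strand.
IAA1: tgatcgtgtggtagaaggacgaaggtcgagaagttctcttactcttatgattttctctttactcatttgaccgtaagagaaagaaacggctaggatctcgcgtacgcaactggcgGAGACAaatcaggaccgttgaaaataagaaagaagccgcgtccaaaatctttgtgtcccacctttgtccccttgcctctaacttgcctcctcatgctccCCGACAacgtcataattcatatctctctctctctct
IAA6: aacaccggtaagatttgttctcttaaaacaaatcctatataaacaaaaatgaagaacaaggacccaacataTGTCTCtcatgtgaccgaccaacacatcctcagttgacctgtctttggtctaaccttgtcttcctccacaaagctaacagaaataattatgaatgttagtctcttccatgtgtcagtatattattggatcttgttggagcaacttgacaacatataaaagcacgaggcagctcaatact
IAA19: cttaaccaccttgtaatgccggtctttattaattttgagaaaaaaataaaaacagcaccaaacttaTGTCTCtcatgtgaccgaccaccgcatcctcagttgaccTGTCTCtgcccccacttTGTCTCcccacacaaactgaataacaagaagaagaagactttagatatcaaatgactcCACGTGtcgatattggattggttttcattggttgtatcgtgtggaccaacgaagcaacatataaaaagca
The shared run of IAA6 and IAA19 was 23 bases, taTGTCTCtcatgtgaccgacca, beginning 181 and 186 bases before the respective starts. Among the 210 pairs of measured Aux/IAA promoters the median longest shared run was 9 bases. ARFs bind both forms of the response element, which share their first letters without 1 containing the other, and bHLH and bZIP factors bind the G-box. At least 1 of TGTCTC and TGTCGG, on either strand, was present in 9 of 21 Aux/IAA promoters (42.9%), 3 of 14 ARF promoters (21.4%) and 14.9% of the 15928 promoters of genes in the table. TGTCTC alone was in 5 Aux/IAA promoters (23.8% against 10.6% of table promoters) and TGTCGG in 6 (28.6% against 4.79%). CACGTG was in 2, those of IAA7 and IAA19 (9.52% against 7.48%).

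Levels were deposited as CPM, read counts scaled to the same total in every library. To compare genes, CPM was divided by the length of the longest annotated transcript in kb. In WT hooks 4 Aux/IAA genes stood well above the rest. IAA7 (AXR2) was at 655, IAA17 (AXR3) at 394, IAA2 at 378 and IAA19 (MSG2) at 357 CPM per kb on average over the 3 WT libraries. Each exceeded at least 99.1% of the genes with an annotated length. IAA7, IAA17 and IAA2 made up 45.2% of the Aux/IAA sum per kb. AXR2, AXR3 and MSG2 are the loci of classical dominant auxin-resistance mutations, and MSG2 acts in tropic growth of the hypocotyl. Neighbouring ranks overlapped between WT libraries from IAA7 down to IAA19. The overlap of IAA7 with IAA17 was narrow (lowest IAA7 value 578.3, highest IAA17 value 583.6 CPM per kb). Every IAA7 value lay above the highest of IAA2 (416.5) and IAA19 (475.4). The order of IAA17, IAA2 and IAA19 was not separated by the spread.

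A second group lay between 83.6 and 221 CPM per kb. In falling order it held IAA9, IAA4, IAA16, IAA8, IAA3 (SHY2), IAA6 (SHY1) and IAA1, and neighbours overlapped from IAA9 through to IAA1. Below it, IAA26, IAA14 (SOLITARY-ROOT), IAA12 (BODENLOS), IAA13, IAA18, IAA29 and IAA5 stood between 14.8 and 28.2 CPM per kb, and of these neighbours IAA13 and IAA18 did not overlap. The lowest were IAA27 at 10.2, IAA11 at 6.99 and IAA10 at 3.01, and of these IAA27 and IAA11 did not overlap the rank below. IAA10 also had the fewest reads of any member, 27 in the library where it was scarcest, against up to 14561 for IAA7.

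The ARF sum per kb was below the Aux/IAA sum in every library. ARF2, a repressor that acts downstream of HOOKLESS1 in hook growth, led at 94.7 CPM per kb in WT, followed by the activator ARF6 at 77.9 and the repressor ARF1 at 41.5, and these 3 made up 59.0% of the ARF sum. ARF2 and ARF6 overlapped between WT libraries, whereas ARF6 and ARF1 did not. ARF8, the close relative of ARF6, followed at 26.6, then ARF4, ARF10 and ARF7 between 18.4 and 21.2, and ARF9, ARF16 and ARF3 between 11.2 and 13.9. ARF5 (MONOPTEROS) was at 9.05, ARF11 at 6.14, ARF19 at 5.96 and ARF17 at 2.80. ARF7 (NPH4) and ARF19 act together in hypocotyl bending. WT libraries did not overlap between ARF6, ARF1, ARF8 and ARF4 as neighbours, between ARF7 and ARF9, ARF16 and ARF3, or ARF19 and ARF17. The activators ARF5 to ARF8 and ARF19 had WT sums of 143, 157 and 114 CPM per kb, against 251, 232 and 188 for the other ARFs.

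**Figure D1:**
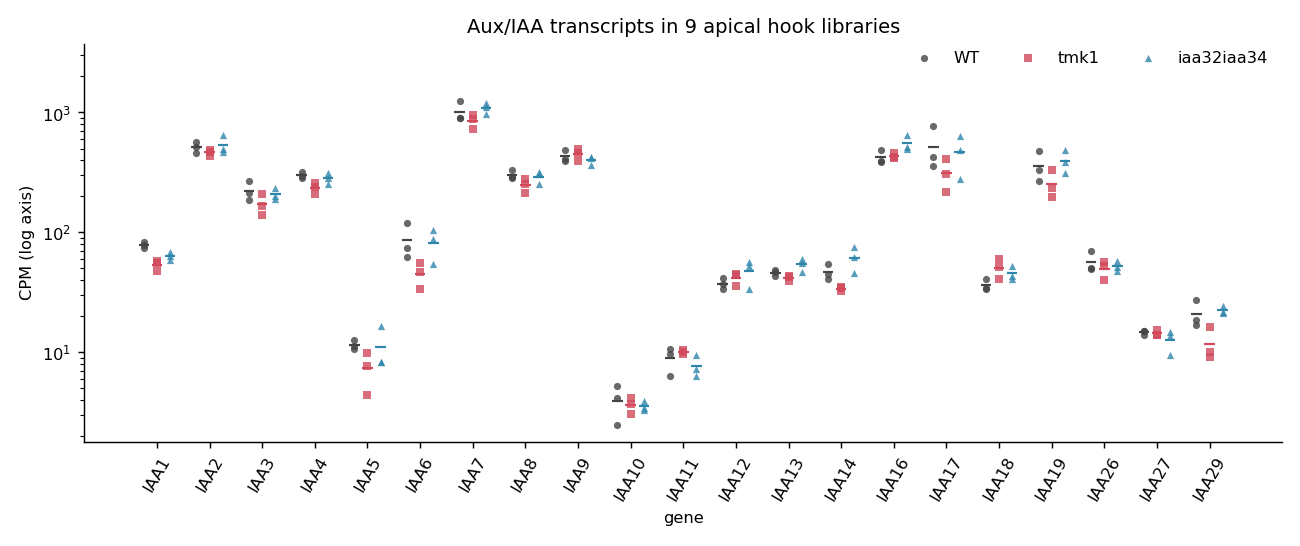
CPM (log axis) of the 21 Aux/IAA genes in each of 9 apical hook libraries, with 1 symbol per library coloured by genotype and a bar at the mean of 3. IAA7 lies near the top in all genotypes, IAA10 at the bottom, and the tmk1 symbols of IAA1, IAA6 and IAA14 lie below those of WT.

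**Figure D2:**
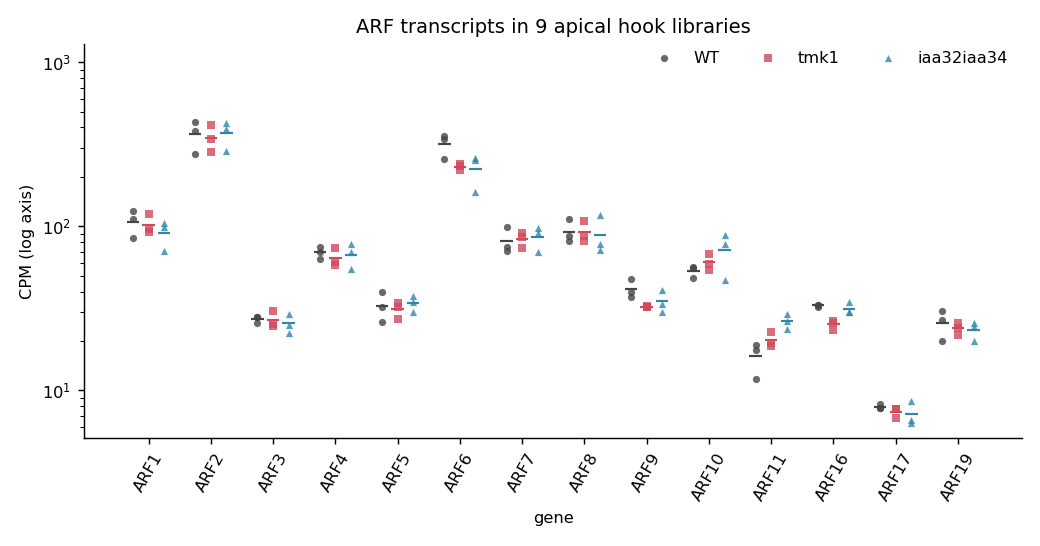
CPM (log axis) of the 14 ARF genes in the same 9 libraries, with symbols per library and bars at the means. ARF2 and ARF6 are the highest and ARF17 the lowest, and the iaa32iaa34 symbols of ARF11 lie above those of WT.

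Library totals, estimated from the smallest steps of the CPM values, were 10077093 to 13601488 reads, with 88.6 to 90.6% of them in the table. The mutated genes matched their labels. TMK1 stood at 387, 468 and 469 CPM in WT, at 45.4, 29.0 and 26.8 in tmk1, and at 477, 463 and 514 in iaa32iaa34. IAA32 stood at 55.3, 43.0 and 50.9 CPM in WT, at 22.3, 25.4 and 28.5 in tmk1, and at 6.44, 10.5 and 8.48 in iaa32iaa34, and IAA34 was not analysed here. The hook regulator HLS1 was present at 7.84 to 23.8 CPM, whereas 0 of 4 root markers and 1 of 4 shoot meristem markers (KNAT1) were among the genes analysed.

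Libraries of 1 genotype differed from each other in a way that separated the families. In WT library 3, 15 of 21 Aux/IAA genes had their highest WT value and 12 of 14 ARFs their lowest. In iaa32iaa34 library 3 these counts were 13 of 21 and 12 of 14. Of all genes, 31.6% were highest in WT library 3 and 44.0% lowest there, and 25.3% and 41.7% in iaa32iaa34 library 3. In tmk1 library 1, 15 of 21 Aux/IAA genes had their lowest tmk1 value, as did 45.7% of all genes.

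The summed levels show the same split. The Aux/IAA sum was 2803, 2821 and 3794 CPM per kb in WT, 2199, 2860 and 2592 in tmk1, with 2747, 3187 and 3757 in iaa32iaa34. The ARF sum was 394, 388 and 302 in WT, 349, 324 and 315 in tmk1, with 373, 363 and 284 in iaa32iaa34. The ratio of the sums therefore ran from 6.30 in tmk1 library 1 to 13.3 in iaa32iaa34 library 3, and the genotypes overlapped.

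Some other measures moved with these libraries and others did not. WT library 3 and iaa32iaa34 library 3 were relatively rich in short transcripts, with rank correlations of a gene's deviation with its transcript length of -0.235 and -0.408, against -0.075 to 0.214 in the other 7 libraries. Casparian strip genes, markers of the endodermis (7 of 8 analysed, ESB1 not analysed here), summed to 58.7, 185 and 528 CPM in WT, 53.2, 232 and 165 in tmk1, with 85.7, 377 and 410 in iaa32iaa34. Within each genotype the libraries stood in the same order for this sum as for the Aux/IAA sum. IAA6, IAA7 and IAA17 had that order in all 3 genotypes. That is 3 of 21 Aux/IAA genes (14.3%) and 0 of 14 ARFs, against 3.56% of all genes. IAA7 and IAA17 made up 20.8 and 12.2% of the Aux/IAA sum in WT, so their order is not independent of the order of that sum. IAA18 had the reverse order in all 3 genotypes, 1 of 21 members (4.76%) against 3.32% of all genes. Photosynthesis genes (23 of 24 analysed, LHCB2.2 not analysed here) summed to 6759 to 13750 CPM in WT, 22390 to 29520 in tmk1 and 11720 to 27690 in iaa32iaa34. This sum was the lowest of WT in WT library 3. In iaa32iaa34 it was 24600 CPM in library 3 and lowest in library 2. Its library order was that of 0 of 21 Aux/IAA genes and 0 of 14 ARFs, against 1.01% of all genes. Epidermis and xylem marker sums in library 3 of WT (1253 and 204 CPM) and of iaa32iaa34 (1222 and 202) lay between those of libraries 1 and 2. The part of these library differences in the results that follow was not tested. In bulk tissue, fewer cells of a type cannot be told apart from less RNA in each.

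IAA17 (AT1G04250) varied most between libraries of a genotype. It stood at 358, 429 and 769 CPM in WT, at 218, 411 and 309 in tmk1, and at 278, 488 and 633 in iaa32iaa34. The 3 genotypes overlapped throughout. Among ARFs the largest SD within a genotype was that of ARF10 (AT2G28350) in iaa32iaa34, at 78.2, 47.1 and 88.5 CPM (SD 0.475 on the log2 scale), while its WT values lay between 48.1 and 56.3. The median SD on the log2(CPM + 1) scale was 0.233 for Aux/IAA and 0.224 for ARF genes, against 0.232 over all genes. Genes were not matched for level in this comparison. Single members ran from ARF16, with an SD above that of 1.78% of genes, to IAA17, above 94.8%.

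**Figure D3:**
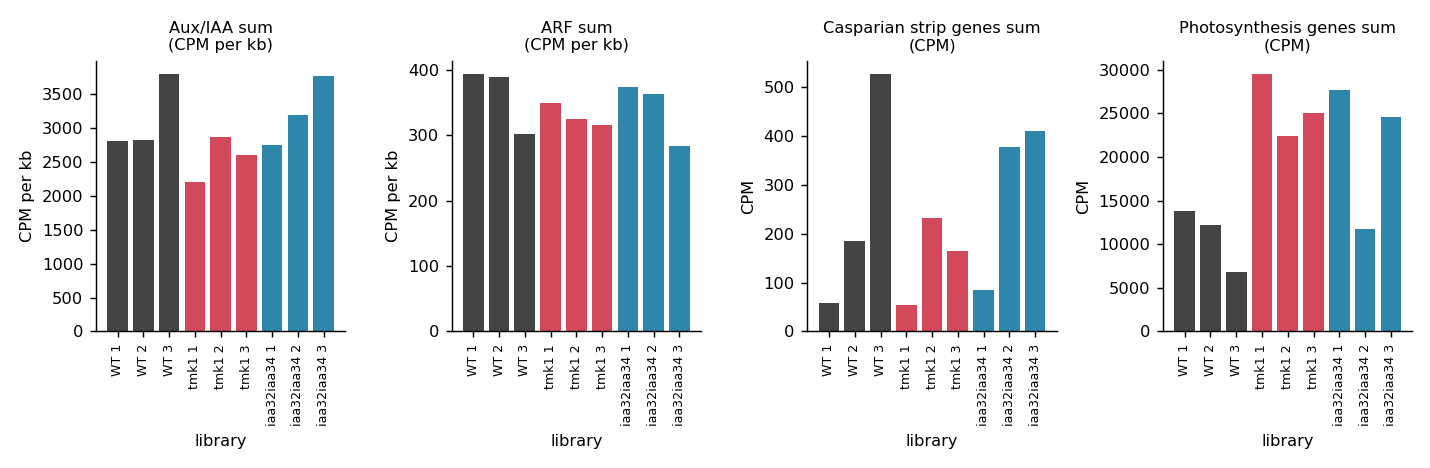
Sums in each of 9 libraries, coloured by genotype: Aux/IAA and ARF sums in CPM per kb, Casparian strip and photosynthesis marker sums in CPM. WT library 3 and iaa32iaa34 library 3 are high for Aux/IAA (3794 and 3757) and low for ARF (302 and 284), and the photosynthesis sum is above all WT values in every tmk1 library.

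The first comparison, tmk1 against WT, asks which transcripts depend on TMK1. In tmk1 hooks 16 of 21 Aux/IAA genes had a lower mean level and 5 a higher one, but 0 passed an adjusted p of 0.05 (limma on log2(CPM + 1), Benjamini-Hochberg over all genes), where 52 of 16383 genes passed (0.317%). The median Aux/IAA difference was -0.23 on the log2 scale, against -0.06 over all genes, of which 58.1% were lower. It was -0.166 with median-of-ratios scaling (15 members lower, all genes -0.004) and -0.151 with a scaling by transcript length (14 lower, all genes -0.003). Unadjusted p-values were under 0.05 for 5 lower members (11.7% of all genes in that direction) and 1 higher member (9.65%). In 7 members, IAA1, IAA4, IAA5, IAA6, IAA8, IAA14 and IAA29, every tmk1 library lay below every WT library, as it did for 18.9% of all genes. In 0 members did every tmk1 library lie above, against 11.5% of all genes.

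IAA1 (AT4G14560), an early auxin-induced gene, had the smallest p. It stood at 79.1, 74.6 and 83.5 CPM in WT and at 48.1, 55.8 and 57.6 in tmk1. The groups were apart by more than either group's range, with a log2 difference of -0.55 ± 0.13 (SE, n = 3 per genotype; limma, adjusted p = 0.0758). It passed without iaa32iaa34 library 2 (limma, adjusted p = 0.0417), a run in which 704 genes passed instead of 52. Over the 9 runs that each left out 1 library, its adjusted p ran from 0.0417 to 0.263 (limma), and it passed in 1. IAA6 (AT1G52830) had the largest difference among the Aux/IAA genes, with 61.9, 74.1 and 121 CPM in WT and 33.9, 55.5 and 46.5 in tmk1. Its log2 difference was -0.87 ± 0.30 (limma, adjusted p = 0.138). Same-numbered WT and tmk1 libraries had positively correlated deviations (0.129 to 0.528), but so did WT library 3 and tmk1 library 2 (0.304). With the replicate number as a block over all 3 genotypes IAA6 passed (limma, adjusted p = 0.0477), as did 323 genes (1.97%), while IAA1 had an adjusted p of 0.0517. Whether the numbers pair the libraries is uncertain, and so is this call of IAA6. IAA6 is among the members whose libraries followed the Casparian strip order.

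IAA29 (AT4G32280), known as a gene induced by shade and by PIF factors, stood at 27.4, 16.8 and 18.4 CPM in WT and at 9.99, 16.4 and 9.04 in tmk1. The highest tmk1 library reached almost the lowest WT library, and the log2 difference was -0.79 ± 0.23 (limma, adjusted p = 0.107). IAA14 (AT4G14550) stood at 40.5, 44.7 and 54.6 CPM in WT and at 34.7, 32.3 and 34.9 in tmk1, a log2 difference of -0.44 ± 0.18 (limma, adjusted p = 0.207). IAA18 (AT1G51950), which acts in embryo and lateral root development, was the highest relative to WT, at 40.8, 34.6 and 33.8 CPM in WT and 60.4, 40.6 and 51.7 in tmk1. These groups overlapped only at their ends, with a log2 difference of 0.46 ± 0.17 (limma, adjusted p = 0.159).

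IAA19 (AT3G15540), which shares the promoter run with IAA6, stood at 333, 269 and 480.1 CPM in WT and at 196, 331 and 234 in tmk1. Its groups overlapped (log2 difference -0.50 ± 0.26; limma, adjusted p = 0.296). In TAIR10.1, 3 pairs of members sit back to back, on opposite strands with no protein-coding gene between them. Their log2 differences in tmk1 were as follows: for IAA14 and IAA1 -0.44 and -0.55, for IAA3 and IAA17 -0.39 and -0.70, and for IAA2 and IAA7 -0.14 and -0.23. The other log2 differences of the family ran from -0.65 (IAA5) to 0.19 (IAA11), with standard errors of 0.13 to 0.36 over the whole family, so differences of about that size could not be told from 0 with 3 libraries.

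Among the 14 ARFs, 11 had a lower mean in tmk1 and 3 a higher one, 0 passed the test, and the median difference of -0.06 on the log2 scale was close to that of all genes. With median-of-ratios scaling 6 of the 14 were lower and the median was 0.005 (all genes -0.004). A scaling by transcript length left 10 lower, with a median of -0.062 (all genes -0.003). The direction of the family therefore depended on the scaling. In ARF6, ARF9, ARF16 and ARF17 every tmk1 library lay below every WT library, 4 of 14 members against 18.9% of all genes. Unadjusted p-values were under 0.05 for ARF9 and ARF16, 2 of 14 against 11.7% of all genes in that direction.

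ARF16 (AT4G30080), a miR160-targeted class C member known from root cap development, stood at 32.3, 33.2 and 33.2 CPM in WT and at 23.4, 26.6 and 25.6 in tmk1. The WT libraries were nearly equal and all above tmk1 (log2 difference -0.37 ± 0.12; limma, adjusted p = 0.126). The miR160-targeted ARF10 differed by 0.17 ± 0.21 and ARF17 by -0.09 ± 0.16, so the values of the 3 members with a site for this microRNA had both signs. ARF9 (AT4G23980) stood at 47.6, 40.0 and 37.2 CPM in WT and at 32.5, 32.1 and 32.0 in tmk1 (log2 difference -0.35 ± 0.15; limma, adjusted p = 0.202).

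ARF6 (AT1G30330), an activator of hypocotyl elongation and flower maturation, had the largest difference of the family. It stood at 339, 353 and 257 CPM in WT and at 239, 232 and 219.8 in tmk1, and the log2 difference was -0.44 ± 0.20 (limma, adjusted p = 0.234). ARF8 (AT5G37020), which also carries a miR167 site, stood at 87.0, 110.3 and 80.9 CPM in WT and at 81.7, 108 and 87.4 in tmk1, and the values overlapped almost fully (log2 difference -0.002 ± 0.20). ARF11 (AT2G46530) was the highest relative to WT, at 18.9, 17.7 and 11.7 CPM in WT and 22.8, 19.4 and 18.7 in tmk1, with a slight overlap (log2 difference 0.34 ± 0.19; limma, adjusted p = 0.317). Without WT library 3 the difference was 0.135 (limma, adjusted p = 0.740).

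**Figure D4:**
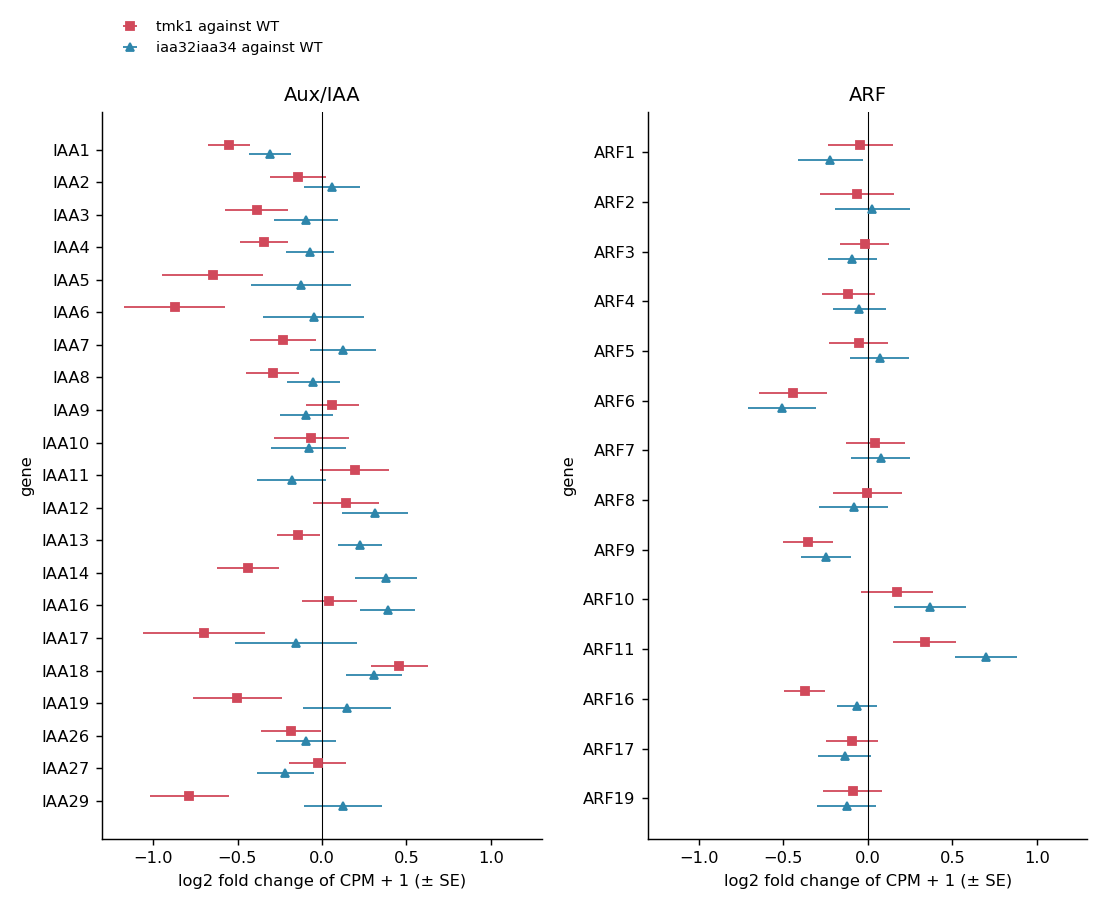
Log2 fold changes on the CPM + 1 scale (± SE from limma) of the 21 Aux/IAA and 14 ARF genes in tmk1 (squares) and iaa32iaa34 (triangles), both against the same 3 WT libraries. Most tmk1 squares of the Aux/IAA genes lie left of 0, with IAA6 farthest at -0.87, and ARF11 in iaa32iaa34 lies farthest to the right at 0.70.

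The second comparison, iaa32iaa34 against WT, asks which transcripts depend on the non-canonical repressors. It uses the same WT libraries as the first, so values of the 2 comparisons are not independent. Of the 21 Aux/IAA genes 12 had a lower and 9 a higher mean, 0 passed the test (0.153% of all genes passed), and the median log2 difference was -0.05, against -0.06 over all genes, of which 58.2% were lower, turning to 0.02 with median-of-ratios scaling and 0.01 with a scaling by transcript length. Every iaa32iaa34 library lay below every WT library for IAA1 (14.6% of all genes) and above for IAA16 and IAA18 (6.54%). Unadjusted p-values were under 0.05 for IAA1 and IAA16, where 10.4% of all genes were lower and 6.17% higher at that level.

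IAA1 stood at 63.0, 59.1 and 69.2 CPM in iaa32iaa34, between the WT and the tmk1 libraries (log2 difference from WT -0.31 ± 0.13; limma, adjusted p = 0.267). IAA16 (AT3G04730), whose dominant mutation reduces auxin and abscisic acid responses, stood at 387, 394 and 485 CPM in WT and at 514, 495 and 652 in iaa32iaa34 (log2 difference 0.39 ± 0.16; limma, adjusted p = 0.275). IAA14 stood at 62.8, 46.2 and 76.1 CPM, partly above WT (log2 difference 0.38 ± 0.18; limma, adjusted p = 0.333), and its difference was 0.569 without library 2 of that genotype and 0.216 without library 3 (limma, adjusted p = 0.0844 and 0.611). IAA6 and IAA29, with the largest tmk1 differences, stood within or around the WT range in iaa32iaa34, at 54.2, 87.7 and 105 CPM and at 21.6, 24.4 and 21.2 CPM.

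Of the 14 ARFs 9 had a lower and 5 a higher mean in iaa32iaa34, 0 passed (limma; unadjusted p under 0.05 for ARF6, lower, and ARF11, higher, where 10.4% and 6.17% of all genes were), and the median log2 difference was -0.075 (0.01 with scaling by transcript length). ARF11 was the most different member of either family in this comparison, with 29.1, 26.4 and 23.6 CPM against 18.9, 17.7 and 11.7 in WT. Every mutant library lay above every WT library (log2 difference 0.70 ± 0.19; limma, adjusted p = 0.155). This held for 1 of the 14 ARFs, against 6.54% of all genes. ARF6 stood at 254, 259 and 161 CPM, with 1 library just above the lowest WT library at 257 (log2 difference -0.51 ± 0.20; limma, adjusted p = 0.253). Without iaa32iaa34 library 3 its difference was -0.288 (limma, adjusted p = 0.490). ARF10 passed in 1 of the 18 alternatives, without iaa32iaa34 library 2, its lowest (limma, adjusted p = 0.0479). In that run 645 genes passed, against 25 with all libraries. With all libraries the log2 difference of ARF10 was 0.37 ± 0.21 (limma, adjusted p = 0.405).

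Shares of the family sum set aside the library differences that all members of a family have in common. They were described for 35 members, and the following were chosen after their values were seen. How many of the 35 had shares without overlap was not counted, so those named have no background to be set against. ARF6 made up 21.2, 22.4 and 20.9% of the ARF sum per kb in WT, 16.8, 17.6 and 17.2% in tmk1, with 16.7, 17.6 and 14.0% in iaa32iaa34, with every mutant library below every WT library. ARF11 made up 1.83, 1.74 and 1.48% in WT, 2.49, 2.27 and 2.26% in tmk1, with 2.97, 2.77 and 3.166% in iaa32iaa34, 3 ranges that did not overlap. IAA9 (AT5G65670) made up 7.44, 7.22 and 6.61% of the Aux/IAA sum in WT, 9.14, 8.86 and 9.17% in tmk1, with 6.82, 6.86 and 5.71% in iaa32iaa34, although its own level differed little (430.7 ± 50.5, 449.8 ± 52.5 and 403 ± 33.2 CPM, SD, n = 3). IAA6 made up 2.58, 3.07 and 3.71% in WT, 1.80, 2.26 and 2.095% in tmk1, with 2.30, 3.21 and 3.26% in iaa32iaa34. IAA1 made up 2.98, 2.80 and 2.33% in WT, 2.31, 2.06 and 2.35% in tmk1, with 2.42, 1.96 and 1.95% in iaa32iaa34. Its WT and tmk1 shares thus overlapped, although its CPM values did not. With 3 libraries against 3, a two-sided exact permutation test cannot give a p below 0.1, so these shares carry no test.

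**Figure D5:**
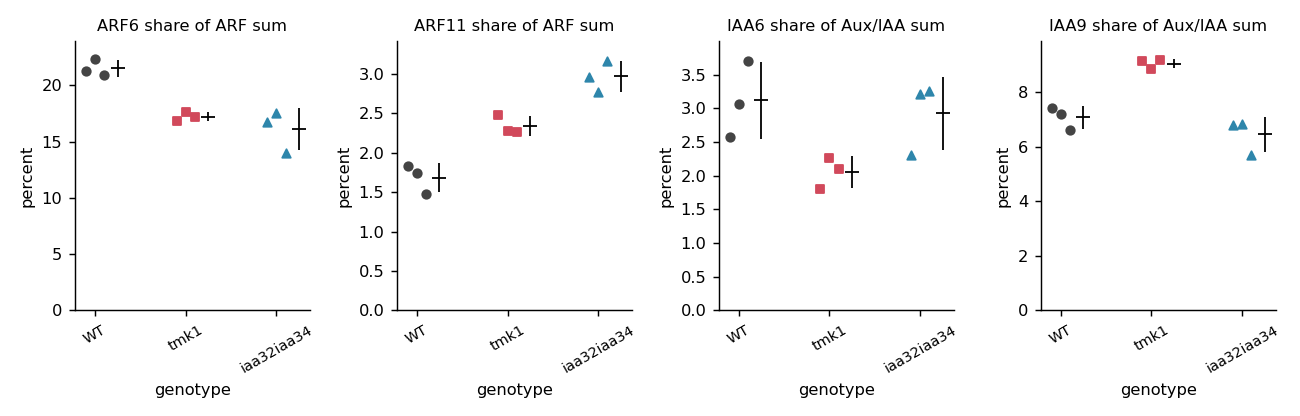
Share of the family sum per kb (percent) taken by ARF6, ARF11, IAA6 and IAA9, with 1 symbol per library and the mean ± SD of 3 beside each genotype. ARF6 is at 20.9% or more in WT and at most 17.6% in both mutants, and IAA9 is between 8.86 and 9.17% in tmk1.

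The third comparison sets the mutants against each other. Here 16 of 21 Aux/IAA genes were lower in tmk1 than in iaa32iaa34 and 5 higher, with a median log2 difference of -0.27, while the median over all genes was 0.01 and 47.9% of genes were lower. Of the members 0 passed the adjusted test (limma; 0.0549% of all genes), and 5 had an unadjusted p under 0.05, all lower (3.94% of all genes in that direction, with 4.18% higher). Every tmk1 library lay below every iaa32iaa34 library in 6 members, IAA1, IAA7, IAA13, IAA14, IAA16 and IAA29 (6.16% of all genes), and above in 1, IAA11 (7.10%). In 15 of the 16 lower members the direction stayed the same under all 18 alternative settings. Settings that change only the error estimate, such as the replicate block, or that leave out a WT library cannot alter these log2 differences.

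IAA14 differed most by p, at 34.7, 32.3 and 34.9 CPM in tmk1 and at 62.8, 46.2 and 76.1 in iaa32iaa34, with no overlap (log2 difference -0.82 ± 0.18; limma, adjusted p = 0.300). IAA29 had the largest difference, at 9.99, 16.4 and 9.04 against 21.6, 24.4 and 21.2 CPM (log2 difference -0.91 ± 0.23; limma, adjusted p = 0.371). IAA13 (AT2G33310), the close relative of IAA12, stood at 39.5, 43.2 and 42.3 CPM in tmk1 and at 47.1, 55.6 and 59.6 in iaa32iaa34 (log2 difference -0.36 ± 0.13; limma, adjusted p = 0.529). IAA11 was higher in tmk1, at 10.1, 9.63 and 10.5 against 6.34, 9.40 and 7.20 CPM (log2 difference 0.37 ± 0.20; limma, adjusted p = 0.666). The annotated IAA11 gene overlaps a measured gene on the opposite strand, as do IAA3, IAA5, IAA27, ARF5 and ARF7, and ARF19 overlaps a measured gene on its own strand. The strand setting of the counting is not given in the sources used here, so the levels of these members are uncertain.

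Of the ARFs 8 were lower and 6 higher in tmk1 than in iaa32iaa34, with a median log2 difference of -0.05, and 0 passed (limma; 1 at an unadjusted p under 0.05, ARF16, where 3.94% of all genes were lower). With scaling by transcript length 12 of the 14 were lower and the median was -0.147, against 0.001 over all genes. ARF16 and ARF11, 2 of 14 members against 6.16% of all genes, had every tmk1 library below every iaa32iaa34 library. ARF16 stood at 30.1, 34.4 and 29.9 CPM in iaa32iaa34, close to WT (tmk1 against iaa32iaa34 -0.31 ± 0.12 on the log2 scale; limma, adjusted p = 0.570). ARF11 differed by -0.36 ± 0.19 (limma, adjusted p = 0.637). ARF1 had the largest difference upward, 0.18 ± 0.19 (limma, adjusted p = 0.818), with overlapping groups, and without iaa32iaa34 library 3 it was 0.004 (limma, adjusted p = 0.999), without tmk1 library 1 0.073 and without iaa32iaa34 library 2 0.284.

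By role, the 5 activators had a median log2 difference of -0.054 in tmk1 and -0.085 in iaa32iaa34 against WT, the 6 repressors -0.054 and -0.072, and the 3 class C members -0.094 and -0.065. In no class did a member pass. The activators ARF5, ARF7 and ARF19 overlapped with WT in both mutants. Their largest log2 difference was that of ARF19 in iaa32iaa34, at -0.13 ± 0.17. ARF2, ARF3 and ARF4 likewise overlapped with WT in both mutants, ARF4 being the farthest from WT at -0.12 ± 0.16 in tmk1. ARF3 and ARF4 are targets of trans-acting small RNAs, and of the 6 measured genes for making small RNAs of this kind or microRNAs 0 passed in either mutant (limma; also 0 at an unadjusted p under 0.05), with median log2 differences of -0.04 in tmk1 and -0.16 in iaa32iaa34. SGS3 had the smallest p of them in tmk1 (-0.27 ± 0.20; limma, adjusted p = 0.448).

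The partners of both families were measured in the same hooks. Of 6 TIR1/AFB receptor genes 5 were analysed, and 0 passed in any comparison (limma), with 1 at an unadjusted p under 0.05 in each mutant against WT, AFB1. AFB1 stood at 210.1, 229 and 198 CPM in WT, at 137, 156 and 146 in tmk1 and at 152, 170.4 and 148 in iaa32iaa34, with both mutants below WT (log2 differences -0.53 ± 0.13 and -0.44 ± 0.13; limma, adjusted p = 0.0797 and 0.174). TIR1, the founding receptor, had 157 ± 12.6 CPM in WT against 200.1 ± 27.9 CPM in tmk1 (SD, n = 3; log2 difference 0.34 ± 0.16; limma, adjusted p = 0.253). The 7 genes of the SCF ligase and its cullin cycle had median log2 differences of -0.02 in tmk1 and -0.09 in iaa32iaa34, and the 5 TOPLESS co-repressors of 0.04 and 0.01, with 0 passing in either list and 1 gene, ECR1 in tmk1, at an unadjusted p under 0.05 against WT. Their smallest p-values in tmk1 were those of ECR1, a subunit of the enzyme that activates the cullin modifier (0.34 ± 0.15; limma, adjusted p = 0.212), and TPL itself (0.14 ± 0.17; limma, adjusted p = 0.674). Among 7 of 8 GH3 genes, which encode auxin-conjugating enzymes and include early auxin-induced genes, 0 passed and the medians were 0.19 in tmk1 and 0.61 in iaa32iaa34. Unadjusted p-values against WT were under 0.05 for 2 of the 7 in tmk1 and for 6 in iaa32iaa34, of which 5 were higher and DFL2 lower. At that level 11.7% of all genes were lower and 9.65% higher in tmk1, and 10.4% and 6.17% in iaa32iaa34. GH3.5, chosen after its values were seen, stood at 169.7, 163 and 181 CPM in WT, at 189, 245 and 261 in iaa32iaa34 and at 139, 172 and 150.3 in tmk1, with every iaa32iaa34 library above the others (log2 difference from WT 0.42 ± 0.15; limma, adjusted p = 0.231). DFL2 stood apart from that median at 57.4, 61.6 and 55.2 CPM in WT and 39.0, 32.6 and 38.8 in tmk1 (log2 difference -0.65 ± 0.14; limma, adjusted p = 0.0697). Of 6 non-canonical Aux/IAA genes, IAA30 and IAA32 were analysed. IAA32 was lower in iaa32iaa34 (log2 difference -2.44 ± 0.18; limma, adjusted p = 2.23e-04), and in tmk1 its log2 difference was -0.94 ± 0.18 (limma, adjusted p = 0.0644).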

How the data were processed

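CPM values (counts scaled to a common total) of 16383 genes in 9 libraries were deposited as a single table. Per the submitters' processing notes the tools were HISAT and HTSeq; versions, build, annotation and strand setting are not given. The libraries were made with a directional kit from 1 µg of total RNA in biological triplicate, per the labels' protocols. Values under 2000 reads were whole multiples of a step within 0.01 of a read. The steps did not meet a stricter test in WT libraries 1 and 2 and tmk1 library 2, so all read totals are estimates used only to describe depth; 3 reads were worth about 0.221 to 0.298 CPM. No count model was fitted.

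Values were analysed as log2(CPM + 1) over all 9 libraries with genotype as group (limma 3.58.1, R 4.3.3; lmFit, then eBayes with trend; two-sided; Benjamini-Hochberg over all genes; threshold 0.05). The fit was also run on simulated counts, drawn independently for each library with the same dispersion for all genes. These lack the shared library differences described above, so the run cannot show how the fit behaves under them. A fold change on this scale understates the change of low genes. The rule for members used gene identifiers only, but it and the gene lists were chosen with earlier results of these data known. Named in full were members with the smallest p (3 Aux/IAA, 2 ARF), the largest differences, the highest and lowest levels and the largest SD per family. From each list of other pathway genes the member with the smallest p was named. TIR1, ARF8, and IAA14 and IAA19 in tmk1, were chosen after their values were seen.

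Same-numbered WT and tmk1 libraries correlated in their deviations from the group means (0.528, 0.129 and 0.140), and a replicate block was taken to pair them. Differently numbered WT and tmk1 libraries ran from -0.461 to 0.304, so the numbers set the pairs apart only in part. For same-numbered WT and iaa32iaa34 libraries the values were 0.348, -0.398 and 0.459, and for tmk1 and iaa32iaa34 0.364, -0.141 and 0.123, so the numbers did not pair those. The block was nevertheless fitted over all 3 genotypes, or over the 2 compared where that is stated. Lengths, promoters, sites and names came from RefSeq TAIR10.1, matched by locus identifier: all 37 members matched, and 16028 genes of the table had a transcript length. Coordinates are left out because the table's build is unknown. Alternatives were other pseudocounts, a filter of at least 5 CPM in at least 3 libraries, median-of-ratios and transcript-length scaling, the replicate block, no trend, only the genotypes compared, and leaving out each library.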

Additional observations from a re-analysis of the deposited data

How the results depend on the processing

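Of 360 recomputed log2 differences of named members under 18 alternatives (16 planned, 2 chosen after seeing the data), 356 kept their side of the threshold, 4 newly passed and 0 changed direction. The filter, the block, no trend, only the genotypes compared, and leaving out a library of the third genotype cannot change a member's direction. In tmk1 against WT, 52 genes passed; the count was 31 with a pseudocount of 0.25, 27 with the filter on low values, 31 with median-of-ratios scaling, 620 with only the 2 genotypes compared, 323 with the replicate block and 1422 with the block and only the 2 genotypes. The block brought 1 Aux/IAA member past the threshold (IAA6), and the block with only the 2 genotypes 2 (IAA1, limma adjusted p = 0.0367, and IAA6, 0.0299). In iaa32iaa34 against WT, 25 genes passed, and 16 with the filter, 12 with only the 2 genotypes, 11 with the block, 14 with both, and 16 with transcript-length scaling. In tmk1 against iaa32iaa34, 9 genes passed, and 3 with only the 2 genotypes, with or without the block. The block changed no other member's call; it gave 10 genes in the last comparison. The causes were not tested.

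Leaving out 1 library moved the count of genes widely. For tmk1 against WT it ran from 6 (without WT replicate 3 or tmk1 replicate 1) to 704 (without iaa32iaa34 replicate 2), with 12, 8 and 7 without WT replicate 1, WT replicate 2 and tmk1 replicate 3, 166 without tmk1 replicate 2, and 174 and 21 without iaa32iaa34 replicates 1 and 3. For iaa32iaa34 against WT it ran from 5 (without WT replicate 2 or iaa32iaa34 replicate 1) to 645 (without iaa32iaa34 replicate 2), with 7, 7 and 6 without WT replicate 1, WT replicate 3 and iaa32iaa34 replicate 3, and 10 without tmk1 replicate 1 or 3. Between the mutants it ran from 3 (without tmk1 replicate 1, tmk1 replicate 3 or iaa32iaa34 replicate 3) to 8, and was 5 without iaa32iaa34 replicate 2. Aux/IAA members past the threshold ran from 0 to 1 in tmk1 against WT, and ARF members from 0 to 1 in iaa32iaa34 against WT, both from iaa32iaa34 replicate 2. The Aux/IAA median ran from -0.317 to -0.186 in tmk1 against WT and from -0.343 to -0.189 between the mutants; in iaa32iaa34 against WT it ran from -0.086 to 0.148 and was positive without iaa32iaa34 replicate 1 (0.148) or WT replicate 3 (0.107). The ARF medians ran from -0.187 to -0.013, from -0.142 to -0.005 and from -0.168 to 0.019 in the same 3 comparisons, the last above 0 without iaa32iaa34 replicate 2.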
